A study of Mus musculus with 4 samples.

Results

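The transcripts described here encode 10 factors that promote or restrain blood and lymphatic vessel growth: the VEGF family ligands Vegfa, Vegfb, Vegfc, Vegfd and Pgf, their co-receptor Nrp1, the angiopoietins Angpt1 and Angpt2, and the thrombospondins Thbs1 and Thbs2. They were taken by symbol from 53379 Ensembl gene identifiers, and all 10 were found. The samples were sorted tumor cells from subcutaneous tumors of MC38-GFP+, a mouse colon adenocarcinoma line carrying GFP, in C57BL/6 mice that had each been inoculated with 50000 cells. Every mouse, in both groups, was given anti-PD-1 antibody in a regimen called sub-optimal, at 100 µg a dose on days 12, 15, 18 and 22. The groups were tumors labelled responder (2 libraries) and non-responder (2 libraries), and the age of the mice and the way response was scored are not given in the labels. It is also not stated if libraries within a group represent different mice, so p-values measure only how far these libraries spread, and that spread may be technical.

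Tumor cells secrete VEGF ligands that bind tyrosine kinase receptors on endothelium: VEGF-A acts mainly through VEGFR2 (Kdr), VEGF-B and placental growth factor through VEGFR1 (Flt1), and VEGF-C and VEGF-D through VEGFR3 (Flt4) on lymphatic vessels. Neuropilins present some of these ligands to the kinases and also bind class 3 semaphorins. Angiopoietin-1 stabilizes vessels through the TIE2 receptor (Tek), angiopoietin-2 is its context-dependent antagonist, and thrombospondin-1 and thrombospondin-2 are matrix glycoproteins that restrain vessel growth, in part through CD36 and CD47.

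Poly(A) RNA had been sequenced, with total counts of 18447041 and 20458601 in the responder libraries and 21670040 and 21754063 in the non-responder libraries. Of the epithelial markers searched, 1 of 11 had enough reads to be tested, and Epcam, an epithelial adhesion molecule, had 1 and 3 counts in responder and 2 and 1 counts in non-responder libraries. The tested marker, the cadherin gene Cdh1, had 1.29 and 1.36 CPM in responder and 0.435 and 2.47 CPM in non-responder libraries. Epithelial markers were thus low or at 0 in these cells of a line labelled as an adenocarcinoma, and the reason was not tested. Ptprc, which encodes the leukocyte antigen CD45, had 0.644 and 6.91 CPM (read counts scaled to a common library size) in responder replicates 1 and 2 and 5.94 and 22.6 CPM in non-responder replicates 1 and 2. Library sizes were adjusted by TMM (trimmed mean of M values). Bulk RNA cannot tell fewer cells of a type from less RNA per cell.

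The sorted cells carried abundant Vegfa and Thbs2 and little Pgf or Angpt2. On a per-length scale, CPM per kilobase of annotated exon, Vegfa averaged 69.8 in responder and 76.9 in non-responder libraries, and Thbs2 averaged 68.9 in responder and 87.3 in non-responder libraries. The 2 genes overlapped in level. Vegfb came next at 39.6 in responder and 33.3 in non-responder libraries, followed by Vegfd (18.0 and 18.9) and Vegfc (13.9 and 12.0). Levels of Vegfc and Vegfd overlapped in responder libraries, and Vegfd was above Vegfc in both non-responder libraries. By their means, Thbs1 (8.35 in responder, 8.28 in non-responder), Angpt1 (7.80 in responder, 11.3 in non-responder) and Nrp1 (4.91 in responder, 8.95 in non-responder) formed a middle tier whose ranges overlapped. Single libraries did not always keep this order. In non-responder replicate 1 Vegfc was at 10.8, below Thbs1 at 12.4 and Nrp1 at 11.4. Pgf averaged 0.262 in responder and 0.255 in non-responder libraries, and Angpt2 0.110 in responder and 0.0996 in non-responder libraries.

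**Figure D1:**
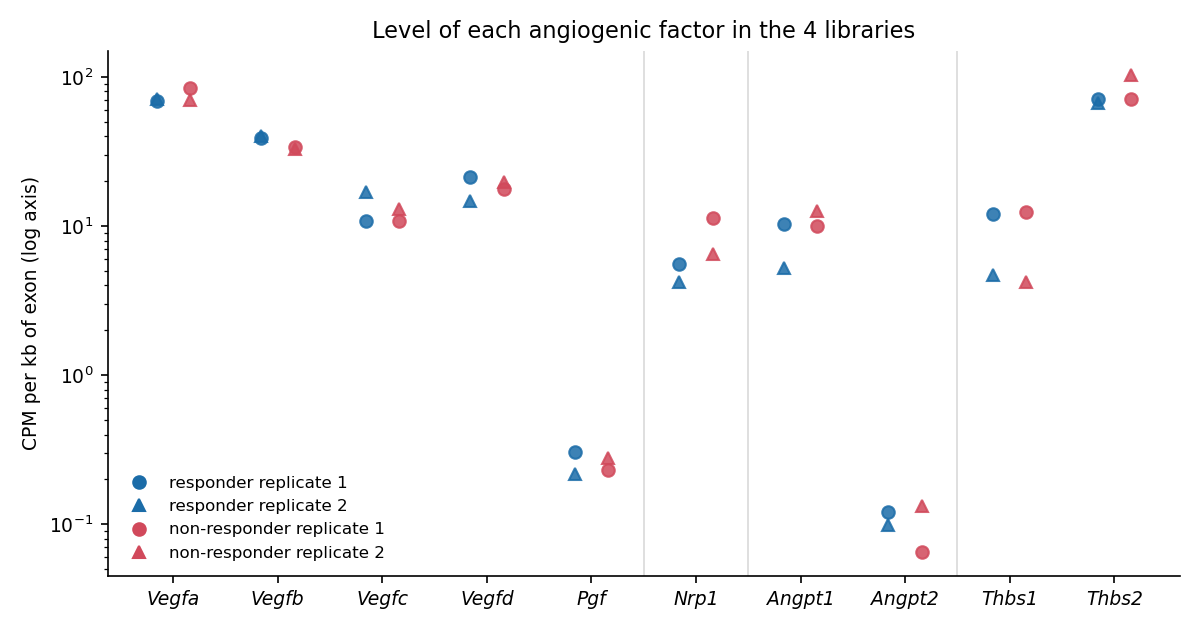
Level of each gene in every library as CPM per kilobase of exon (log axis), responder libraries (blue) to the left of non-responder libraries (red), circles for replicate 1 and triangles for replicate 2. Vegfa and Thbs2 are the highest; Nrp1 has both responder libraries below both non-responder libraries.

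Vegfa, the highest of the 5 ligands, and Thbs2, the higher of the 2 thrombospondins among the members, differ in the sequence just upstream of their annotated starts. Both stretches are 250 bases long, from RefSeq promoter windows on GRCm38.p6, and are given 5′ to 3′ on the gene's strand to show the contrast. Capitals mark GC boxes (GGGCGG) and TATA boxes (TATAAA) on either strand.
Vegfa: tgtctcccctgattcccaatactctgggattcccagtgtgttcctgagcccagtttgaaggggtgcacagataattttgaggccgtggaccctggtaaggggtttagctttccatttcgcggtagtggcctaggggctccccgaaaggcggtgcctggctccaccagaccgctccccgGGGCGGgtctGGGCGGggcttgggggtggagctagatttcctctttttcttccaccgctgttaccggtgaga
Thbs2: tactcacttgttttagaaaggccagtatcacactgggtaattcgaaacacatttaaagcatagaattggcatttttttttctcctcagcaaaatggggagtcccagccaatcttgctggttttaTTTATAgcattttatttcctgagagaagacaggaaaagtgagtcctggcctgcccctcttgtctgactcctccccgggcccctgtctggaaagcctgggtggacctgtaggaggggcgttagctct
The Vegfa stretch (chr17:46032378-46032627, minus strand) holds 59.2% G or C, 11 CpG dinucleotides and 2 GC boxes, and the Thbs2 stretch (chr17:14694263-14694512, minus strand) holds 46.8% G or C, 3 CpG dinucleotides and 1 TATA box, which lies on the opposite strand as TTTATA. Windows were found for 7 of the 10 members. GC boxes were in 5 of these 7, against 32.7% of all 32841 windows, and TATA boxes in 2 (Vegfd and Thbs2), against 12.4%. The hypoxia-factor core ACGTG was in none of the 7 windows (16.6% of all) and its variant GCGTG in 3, those of Vegfb, Pgf and Nrp1 (28.2% of all). The windows of Pgf and Nrp1 lie within the annotated gene spans, and those of Vegfd and Pgf overlap exons of the same gene. For each member the most upstream window was used, while the background counts every window. These matches describe letters only, and the windows are short.

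No member differed between responder and non-responder tumor cells by the test over all genes. Of the 10, 9 had enough reads to be tested (Angpt2 did not), 4 with a higher and 5 with a lower estimate in responders. Their median log2 fold change was -0.07, against -0.0071 over all 13792 tested genes. Without responder replicate 1 it was -0.35, with 2 higher and 7 lower, and without responder replicate 2 it was -0.13. By the quasi-likelihood test of edgeR, with p-values adjusted after Benjamini and Hochberg, 0 members passed an adjusted p of 0.05, where the background was 0% (0 genes of all tested, smallest adjusted p 0.111). DESeq2 called 62 genes (0.45%, and 5.34% at an unadjusted p under 0.05) and limma-voom 0 (6.64%, or 916 genes, at an unadjusted p under 0.05), and neither called a member after adjustment. At edgeR's unadjusted p under 0.05 the count was 1 member, Nrp1, lower in responders, where the background was 6.21% of genes in both directions (856 genes), 3.63% lower and 2.57% higher in responders. The groups did not overlap for 3 of the 9 tested members, close to the background of 36.5%. These were Vegfb, higher in responders (background 18.8%), and Thbs2 and Nrp1, lower in responders (background 17.8%).

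**Figure D2:**
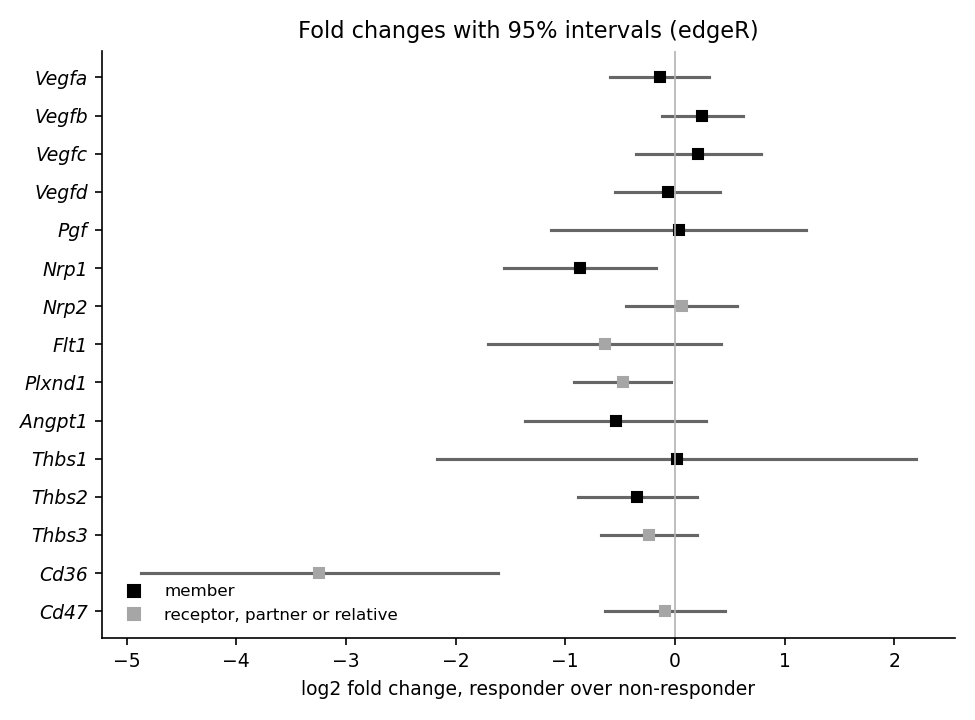
Log2 fold change of responder over non-responder libraries with its unadjusted 95% interval from edgeR, for the 9 tested members (black) and for selected receptors, partners and relatives (grey). Among the members the interval leaves 0 outside for Nrp1, and the widest is that of Thbs1.

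Vegfa, the principal inducer of endothelial sprouting, had 294 and 303 CPM in responder replicates 1 and 2 and 359 and 300 CPM in non-responder replicates 1 and 2. The groups overlapped, with non-responder replicate 1 above the other 3 libraries. The log2 fold change was -0.14 (SE 0.19, 95% interval -0.59 to 0.31, edgeR adjusted p = 0.932), and without non-responder replicate 1 it was -0.00028. The gene (ENSMUSG00000023951) spans chromosome 17 from 46016993 to 46032369 on mm10 (GRCm38), minus strand, with reads counted over its annotated exons, so splice forms of different length such as those that bind or escape heparan sulfate were not separated.

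Vegfb, a VEGFR1 ligand, had the smallest SE of the 9 tested members. It had 62.6 and 64.6 CPM in responder and 54.5 and 52.4 CPM in non-responder libraries, with no overlap. The log2 fold change was 0.25 (SE 0.16, 95% interval -0.12 to 0.62, edgeR adjusted p = 0.844). Its estimate ran from 0.22 to 0.28 when each library was left out in turn.

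The lymphatic ligands varied within groups as much as between them. Vegfc had 26.3 and 41.6 CPM in responder and 26.6 and 32.1 CPM in non-responder libraries, with the highest and the lowest value both in responders. Its log2 fold change was 0.21 (SE 0.25, edgeR adjusted p = 0.917), which turned to -0.15 without responder replicate 2. Vegfd had 51.1 and 35.6 CPM in responder and 43.0 and 47.9 CPM in non-responder libraries. Here the order within the responders was the opposite: replicate 1 was the highest of the 4 libraries and replicate 2 the lowest. The log2 fold change of Vegfd was -0.07 (SE 0.21, edgeR adjusted p = 0.968), and turned to 0.17 without responder replicate 2 and to 0.01 without non-responder replicate 2.

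Pgf, the placental growth factor gene, was near the limit of detection. It had 18 and 12 counts in responder and 14 and 18 counts in non-responder libraries, and its 95% interval ran from -1.13 to 1.20 on the log2 scale around 0.04 (edgeR adjusted p = 0.993). The estimate turned to -0.24 without responder replicate 1 and to -0.08 without non-responder replicate 1. The values do not exclude differences within that interval, in either direction.

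Summed over the 5 ligands per kilobase, Vegfa made up 49.1% and 49.5% in responder and 57.1% and 51.5% in non-responder libraries. Vegfb made up 27.9% and 28.1% in responder and 23.2% and 24.0% in non-responder libraries. Shares of Vegfa were thus lower and shares of Vegfb higher in both responder libraries, as descriptions that move against each other by construction. Vegfd ranged from 10.3% to 15.1% in responder and from 12.2% to 14.6% in non-responder libraries, Vegfc from 7.68% to 11.9% in responder and from 7.40% to 9.65% in non-responder libraries, and Pgf stayed under the shares of the others at 0.151% to 0.220% in responder and 0.159% to 0.205% in non-responder libraries.

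**Figure D3:**
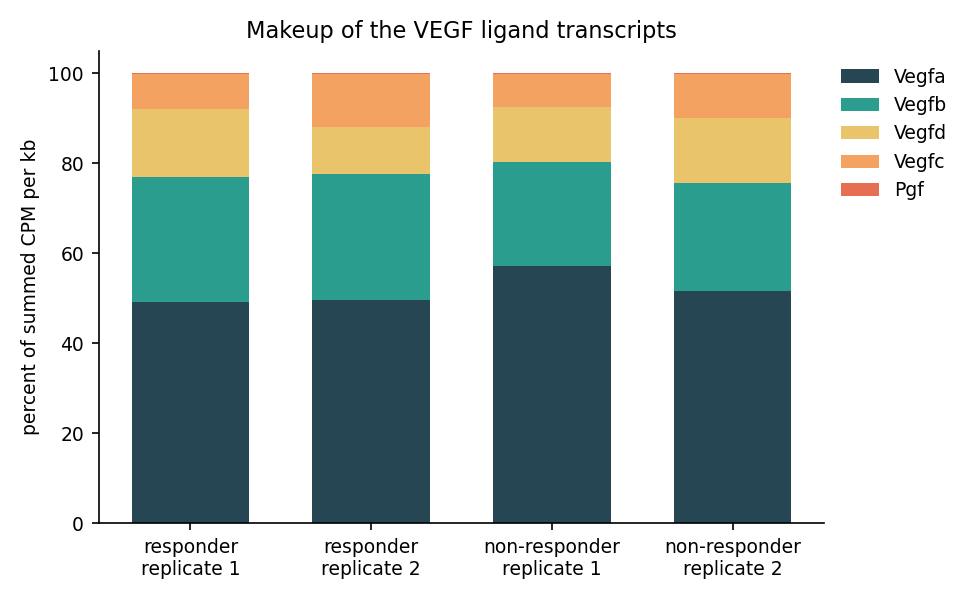
Percent of the summed CPM per kilobase of the 5 VEGF family ligands in each library, stacked by gene. Vegfa is the largest part in every library, from 49.1% in responder replicate 1 to 57.1% in non-responder replicate 1, and Pgf is barely visible.

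Nrp1, which encodes the co-receptor neuropilin-1, showed the largest estimate among the members. It had 54.8 and 41.3 CPM in responder and 111 and 64.0 CPM in non-responder libraries. Both responder libraries lay below both non-responder libraries, and non-responder replicate 1 stood well above the other. The mean was 48.0 ± 9.59 CPM in responder and 87.6 ± 33.4 CPM in non-responder libraries (SD, n = 2 each), 1.82-fold lower in responders (log2 fold change -0.87, SE 0.29, 95% interval -1.55 to -0.18). The difference did not pass edgeR's test over all genes (unadjusted p = 0.0209, adjusted p = 0.738). The estimate was -0.41 without non-responder replicate 1 (edgeR adjusted p = 0.603) and -1.21 without non-responder replicate 2, where it passed (edgeR adjusted p = 0.00193). It also passed with no filter on low counts (-0.87, edgeR adjusted p = 0.00478), and over all alternatives the adjusted p ranged from 0.00193 to 0.911. The gene (ENSMUSG00000025810) lies on chromosome 8 from 128358604 to 128503363, plus strand.

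The related co-receptor Nrp2, which favours VEGF-C, was far more abundant and did not follow. It had 634 and 474 CPM in responder and 518 and 545 CPM in non-responder libraries, with both responder libraries outside the range of the non-responders on opposite sides (log2 fold change 0.06, SE 0.22, edgeR adjusted p = 0.975). The estimate turned to -0.17 without responder replicate 1. Per kilobase, the ratio of Nrp1 to Nrp2 was 0.105 and 0.105 in responder and 0.260 and 0.142 in non-responder libraries. An exact two-sided permutation test over the 4 libraries gave p = 0.333, the smallest this design allows, and an adjusted p of 1 over the 5 ratios examined, which were chosen after the values were seen. Among 12 class 3 semaphorins and plexins, the other arm of neuropilin signalling, 10 were tested, 1 with a higher and 9 with a lower estimate in responders and none past edgeR's adjusted p of 0.05, at a median log2 fold change of -0.12. That median ran from -0.31 without responder replicate 1 to -0.05 without non-responder replicate 2, with 6 to 7 of the 10 lower. Plexin D1 (Plxnd1) had 128 and 123 CPM in responder and 195 and 154 CPM in non-responder libraries (log2 fold change -0.48, SE 0.19, edgeR adjusted p = 0.766), and Plxna1 had 275 and 250 CPM in responder and 359 and 305 CPM in non-responder libraries (log2 fold change -0.34, edgeR adjusted p = 0.829). The groups did not overlap for either plexin, both lower in responders (background 17.8%). Sema3a, a repulsive neuropilin-1 ligand, had 422 and 362 CPM in responder and 484 and 315 CPM in non-responder libraries, and its log2 fold change of -0.03 turned to 0.01 with library size alone as the scaling, to 0.08 without responder replicate 2 and to 0.32 without non-responder replicate 1.

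Markers of fibroblasts, like Nrp1, were lower in responders, but among the non-responder libraries their summed level was higher in replicate 2 and Nrp1 in replicate 1. Of 15 markers searched, 13 were tested, 1 with a higher and 12 with a lower estimate in responders and 9 with both responder libraries below both non-responder libraries (background 17.8%). Their summed level was 10203 and 8617 CPM in responder and 12164 and 18253 CPM in non-responder libraries, and no marker of the 15 was at 0 in any library. Bulk RNA does not tell if fibroblasts or the tumor cells themselves carried these transcripts. Col1a1, a fibrillar collagen chain, had 112 and 92.8 CPM in responder and 240 and 278 CPM in non-responder libraries. The matrix gene Dpt had 37.3 and 29.0 CPM in responder and 67.5 and 101 CPM in non-responder libraries. These were the 2 tested markers of smallest p, and most of the summed level came from other markers. In the pericyte and smooth muscle list, 5 of 12 markers were tested, 2 with a higher and 3 with a lower estimate, and the summed level was 215 and 213 CPM in responder and 289 and 314 CPM in non-responder libraries. Nearly all of it came from Cspg4 and Pdgfrb. Pdgfrb, the receptor for PDGF-B, had 107 and 78.3 CPM in responder and 220 and 198 CPM in non-responder libraries. With a filter of 5 CPM in 2 libraries, 2 genes of this list were left. Of these Pdgfrb had a lower estimate in responders and the other a higher one. Mcam had 0.644 and 0.785 CPM in responder and 1.59 and 1.48 CPM in non-responder libraries. Kcnj8, a pericyte channel gene, was at 0 in all libraries. None of these markers passed edgeR's adjusted p of 0.05 in the fit by group alone, where Col1a1 had 0.221 and Dpt and Pdgfrb 0.334. With DESeq2 the adjusted p was 2.31e-07 for Col1a1, 0.000304 for Pdgfrb and 0.000619 for Dpt, and with no filter on low counts all 3 passed in edgeR. Leaving out each library in turn, Dpt passed in 4 of 4 fits, Col1a1 in 3 (not without responder replicate 2) and Pdgfrb in 2 (without responder replicate 1 or non-responder replicate 2). The median log2 fold change of the pericyte list, -0.46, was 0.15 when non-responder replicate 2 was left out, -1.04 when replicate 1 of that group was, and -0.26 when responder replicate 2 was. It was -0.04 with limma-voom.

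Leukocyte markers also had lower estimates in responders, though their summed levels overlapped between the groups. All 10 had a lower estimate in responders, 4 of them without overlap (background 17.8%), and 8 of 10 without non-responder replicate 2. Their median log2 fold change was -1.64, and ran from -4.23 without responder replicate 2 to -0.58 without non-responder replicate 2. Their summed level was 23.1 and 59.1 CPM in responder and 58.7 and 145 CPM in non-responder libraries. It was highest in non-responder replicate 2, and responder replicate 2 was level with non-responder replicate 1. Itgb2, a leukocyte integrin chain, had 10.6 and 13.1 CPM in responder and 13.3 and 20.7 CPM in non-responder libraries. Arhgdib had 9.47 and 9.84 CPM in responder and 12.4 and 19.1 CPM in non-responder libraries. Both were among the 4 without overlap. All 14 tested macrophage and monocyte markers of 15 also had a lower estimate, and 12 of 14 without non-responder replicate 2. The groups did not overlap for 4 of them, Ccr2 and Cx3cr1 included (background 17.8%). The median log2 fold change was -1.95, and ran from -4.99 without responder replicate 2 to -0.78 without non-responder replicate 2. The summed levels were 15.8 and 94.1 CPM in responder and 93.8 and 260.6 CPM in non-responder libraries, and also overlapped. The chemokine receptor gene Ccr2 had 0.0991 and 0.995 CPM in responder and 2.08 and 4.71 CPM in non-responder libraries, and Cx3cr1 0.644 and 3.87 CPM in responder and 4.49 and 13.6 CPM in non-responder libraries. Both passed without responder replicate 2 (edgeR adjusted p = 0.000692 for Ccr2 and 0.000419 for Cx3cr1), and Ccr2 also with no filter on low counts (edgeR adjusted p = 0.000275). The part that fibroblast, pericyte or leukocyte RNA had in the Nrp1 values was not tested.

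**Figure D4:**
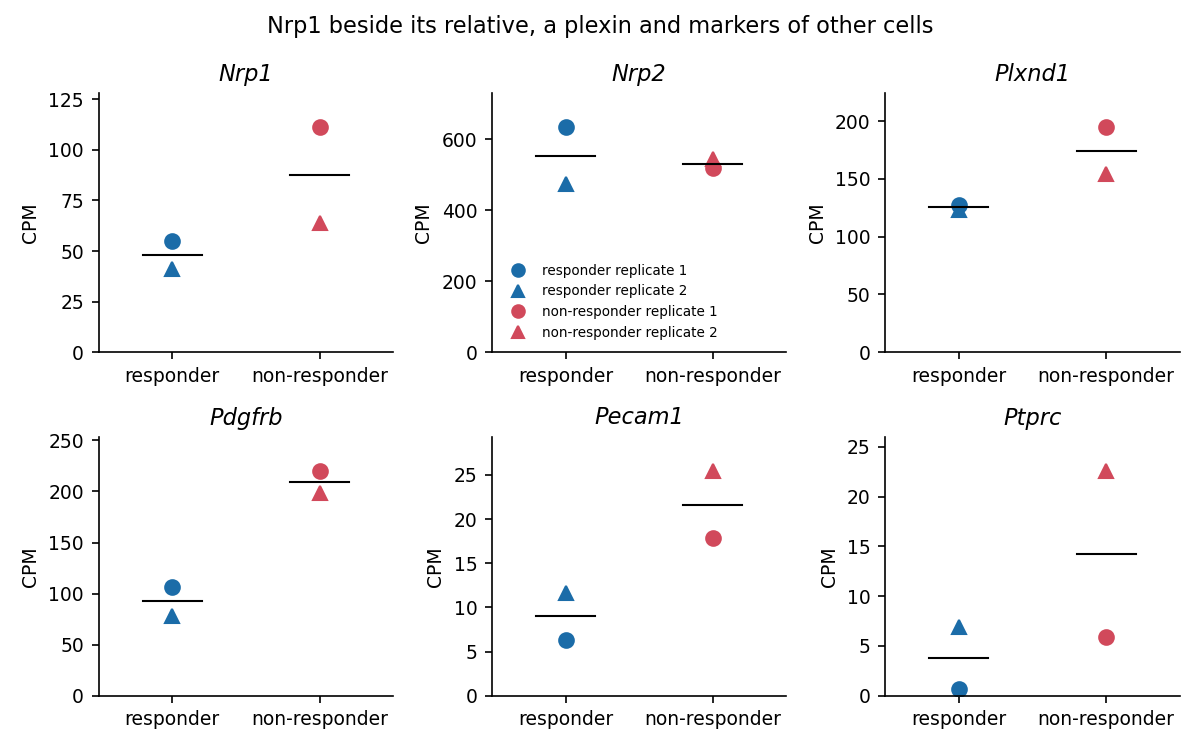
CPM in each library (circles replicate 1, triangles replicate 2, black bars group means of 2 libraries) of Nrp1, its relative Nrp2, the plexin Plxnd1, the mural and fibroblast receptor gene Pdgfrb, and the endothelial and leukocyte markers Pecam1 and Ptprc. Nrp1, Plxnd1, Pdgfrb and Pecam1 have both responder libraries below both non-responder libraries, and Nrp2 and Ptprc overlap.

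The kinase receptors that answer these ligands were nearly absent. Of the 4 VEGF receptors and co-receptors listed 2 were tested (Flt1 and Nrp2), of the 5 other angiopoietin and TIE pathway genes 1 (Angptl4), and none passed. Flt1 had 18 and 19 counts in responder and 36 and 27 counts in non-responder libraries (log2 fold change -0.64, SE 0.46, edgeR adjusted p = 0.862). Kdr had 1 and 3 counts in responder and 8 and 5 counts in non-responder libraries. Flt4 had 0 counts in both responder libraries, which allows up to 0.149 and 0.157 CPM (3 counts, counting error only), against 6 and 1 counts in non-responder libraries. Of the TIE receptors, Tek had 2 and 0 counts in responder and 4 and 0 counts in non-responder libraries, and Tie1 had 0 and 0 counts in responder and 4 and 0 counts in non-responder libraries. Of 21 endothelial markers 7 were tested, 2 with a higher and 5 with a lower estimate in responders, and the whole list summed to 26.3 and 30.5 CPM in responder and 39.6 and 49.3 CPM in non-responder libraries. The transcription factor gene Erg was at 0 in all libraries. Pecam1, which leukocytes and platelets also carry, had 6.34 and 11.6 CPM in responder and 17.8 and 25.5 CPM in non-responder libraries (log2 fold change -1.27, edgeR adjusted p = 0.631). It passed without responder replicate 2 (edgeR adjusted p = 0.00892) and with no filter on low counts (edgeR adjusted p = 0.000424). Eng had 3.12 and 3.40 CPM in responder and 4.97 and 6.28 CPM in non-responder libraries. Cdh5, the endothelial cadherin gene, had 5.95 and 3.51 CPM in responder and 5.51 and 2.15 CPM in non-responder libraries, and its log2 fold change of 0.31 turned to -0.13 without responder replicate 1 and to -0.22 without non-responder replicate 2.

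Angpt1, the TIE2 agonist, was low in 1 responder library. It had 54.0 and 27.2 CPM in responder and 51.8 and 66.2 CPM in non-responder libraries. Responder replicate 1 lay between the non-responder libraries, and replicate 2 was below the other 3 libraries. The log2 fold change was -0.54 (SE 0.34, 95% interval -1.36 to 0.29, edgeR adjusted p = 0.846), -0.13 without responder replicate 2 and -1.12 without responder replicate 1 (edgeR adjusted p = 0.103). Angpt2, in endothelium the destabilizing partner, had 9 and 7 counts in responder and 5 and 11 counts in non-responder libraries, and was too low to be tested. It lies inside Mcph1, which is on the opposite strand and had 868 to 922 counts per library, and the counting used strand. Angptl4, an angiopoietin-like factor, had 20.9 and 19.3 CPM in responder and 21.3 and 18.6 CPM in non-responder libraries, and its log2 fold change of 0.01 turned to -0.05 without responder replicate 1 and to -0.08 without non-responder replicate 2.

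Thbs1, the thrombospondin that binds CD36 and CD47 and can activate latent TGF-beta, differed within the groups and not between them. It had 72.8 and 28.7 CPM in responder and 75.1 and 25.5 CPM in non-responder libraries. In both groups replicate 1 was high and replicate 2 low, and the group means were 50.7 ± 31.2 CPM in responder and 50.3 ± 35.1 CPM in non-responder libraries (SD, n = 2 each). The log2 fold change was 0.01 with an SE of 0.76 and a 95% interval from -2.17 to 2.20 (edgeR adjusted p = 0.998). The estimate turned to -0.82 without responder replicate 1 and to -0.57 without non-responder replicate 2, and was 1.00 without non-responder replicate 1. Comparing libraries of the same number, the log2 ratio was -0.04 for replicate 1 and 0.17 for replicate 2; whether the numbers mark a shared batch is not given in the labels.

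Thbs2, which inhibits endothelial growth and was the higher of the 2 thrombospondins, had 418 and 397 CPM in responder and 420 and 614 CPM in non-responder libraries. The groups did not overlap, but responder replicate 1 and non-responder replicate 1 were almost equal, and the gap came from non-responder replicate 2. The log2 fold change was -0.34 (SE 0.24, 95% interval -0.89 to 0.20, edgeR adjusted p = 0.855) and -0.04 without non-responder replicate 2. That library also had the highest summed fibroblast marker level, 18253 CPM, against 8617 to 12164 CPM in the others. Which cells carried these markers cannot be told from bulk RNA, and any part of fibroblast RNA in the Thbs2 values was not tested. Per kilobase, the ratio of Thbs1 to Thbs2 was 0.170 and 0.0704 in responder and 0.174 and 0.0405 in non-responder libraries, and that of Vegfa to Thbs2 was 0.973 and 1.06 in responder and 1.18 and 0.675 in non-responder libraries (exact two-sided permutation p = 1 for both).

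Of the other thrombospondins, Thbs3 had 22.0 and 26.6 CPM in responder and 29.3 and 27.9 CPM in non-responder libraries (log2 fold change -0.23, edgeR adjusted p = 0.875), while Thbs4 and Comp had at most 8 counts in any library. Cd36, the scavenger receptor through which thrombospondins act on endothelium, had 1 and 5 counts in responder and 27 and 38 counts in non-responder libraries. Summed by group the ratio of responder to non-responder was 0.101, with a 95% counting interval of 0.0358 to 0.232 (exact Poisson), and edgeR's adjusted p was 0.455. It passed without responder replicate 2 (edgeR adjusted p = 0.0269) and with no filter on low counts (edgeR adjusted p = 0.000818). Macrophages and fat cells also carry Cd36, and the tested macrophage markers, given above, also had lower estimates in responders. The part of macrophage or fat cell RNA in the Cd36 values was not tested. Pf4, a platelet chemokine that restrains vessel growth, had 1 and 2 counts in responder and 12 and 17 counts in non-responder libraries. The ratio was 0.113 with a 95% counting interval of 0.0221 to 0.365, which covers counting error only. Over the spread of the libraries it did not pass (edgeR adjusted p = 0.558). Of 7 platelet markers 3 were tested, 1 with a higher and 2 with a lower estimate, and none passed. Gp9 was at 0 in all libraries and Gp1bb, another platelet receptor chain, had 13 and 8 counts in responder and 11 and 29 counts in non-responder libraries. Cd47 had 316 and 293 CPM in responder and 258 and 389 CPM in non-responder libraries (log2 fold change -0.09, edgeR adjusted p = 0.962), and the estimate turned to 0.24 without non-responder replicate 2. All 7 tested thrombospondin receptor genes of 8 had a lower estimate in responders (median log2 fold change -0.19), and none passed. The median ran from -0.40 without responder replicate 1 to -0.06 without responder replicate 2, and 5 of the 7 were lower without either non-responder library. Among them the clearance receptor gene Lrp1 had 431 and 304 CPM in responder and 411 and 531 CPM in non-responder libraries.

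Among 20 other factors that promote vessel growth, 16 were tested, 9 with a higher and 7 with a lower estimate in responders, and none passed edgeR's adjusted p of 0.05 (median log2 fold change 0.12). Without responder replicate 1 the median was -0.0030, with 8 higher and 8 lower, and it was 0.31 without responder replicate 2. Dropping a non-responder library gave 0.01 (replicate 1 dropped) and 0.28 (replicate 2 dropped). Ccn1, a matricellular integrin ligand, had 304 and 391 CPM in responder and 219 and 125 CPM in non-responder libraries (log2 fold change 1.02, SE 0.29, edgeR adjusted p = 0.638). It passed with no filter on low counts (edgeR adjusted p = 0.0015) and without non-responder replicate 1, where the estimate was 1.48 (edgeR adjusted p = 0.0255). Hgf, the MET ligand, had 92.4 and 76.5 CPM in responder and 124 and 117 CPM in non-responder libraries (log2 fold change -0.51, SE 0.18, edgeR adjusted p = 0.744). In neither did the groups overlap (background 36.5% over both directions). Fgf2, a basic fibroblast growth factor, had 10 and 13 counts in responder and 10 and 20 counts in non-responder libraries. Of 3 tested genes that process VEGF-C and VEGF-D, all had a higher estimate, but 1 of 3 without non-responder replicate 1 (median log2 fold change 0.20, against -0.02 without that library). Among them were the protease gene Adamts14 with 106 and 120 CPM in responder and 88.2 and 99.2 CPM in non-responder libraries, and Pcsk7 with 20.9 and 22.0 CPM in responder and 15.5 and 21.9 CPM in non-responder libraries, and none passed.

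Among 21 other inhibitors of vessel growth, 16 were tested, 7 with a higher and 9 with a lower estimate and none past the threshold (median log2 fold change -0.11). That median was 0.04 with limma-voom and 0.21 without non-responder replicate 2. Adamts1, a protease that binds VEGF-A and cleaves thrombospondins, had 116 and 140 CPM in responder and 110 and 98.9 CPM in non-responder libraries. Serpinf1, which encodes PEDF, had 702 and 697 CPM in responder and 848 and 680 CPM in non-responder libraries, and its log2 fold change of -0.13 turned to 0.05 without non-responder replicate 1. The immediate early list, which is induced when tissue is dissociated, had 15 of 16 members with a higher estimate in responders (median log2 fold change 0.86, or 0.38 without responder replicate 2), with summed levels of 2325 and 4258 CPM in responder and 1909 and 1667 CPM in non-responder libraries. Egr1 had 550 and 816 CPM in responder and 316 and 244 CPM in non-responder libraries, and Nr4a1 76.1 and 67.0 CPM in responder and 31.3 and 28.3 CPM in non-responder libraries. In edgeR's fit by group alone the adjusted p was 0.378 for Egr1 and 0.221 for Nr4a1. With DESeq2 the adjusted p was 0.000571 for Egr1 and 1.5e-05 for Nr4a1. Nr4a1 also passed in edgeR with no filter on low counts and in 4 of 4 fits that left out a library, and Egr1 with no filter and in 2 of those 4 (without responder replicate 1 or non-responder replicate 2). Ccn1 was higher in the same libraries as that list, and the part of that list in its values was not tested.

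Vegfa is a target of hypoxia-inducible factors (HIFs). The median of HIF regulators and targets, each set against its own mean, was lowest in responder replicate 2, where Vegfa was near its mean. Of 21 such genes found, 20 were tested, 4 with a higher and 16 with a lower estimate in responders (median log2 fold change -0.19), and none passed edgeR's adjusted p of 0.05. In responder replicate 2 the genes lay at a median of -0.36 on the log2 scale relative to each gene's own mean over the libraries. For the same genes this median was 0.13 in responder replicate 1, 0.15 in non-responder replicate 1 and 0.04 in non-responder replicate 2. The same median over all tested genes was not determined, so these values have no background beside them. The list's median log2 fold change was 0.01 without responder replicate 2, with 11 higher and 9 lower, -0.42 without responder replicate 1 and -0.12 without non-responder replicate 1. Vegfa deviated by -0.05 in responder replicate 2, -0.09 in responder replicate 1, 0.20 in non-responder replicate 1 and -0.06 in non-responder replicate 2. Car9, a hypoxia-induced carbonic anhydrase, had 68.6 and 36.8 CPM in responder and 57.0 and 70.7 CPM in non-responder libraries, and its log2 fold change of -0.28 turned to 0.11 without responder replicate 2. Ankrd37 had 21.9 and 10.99 CPM in responder and 23.7 and 25.0 CPM in non-responder libraries, and the glucose transporter gene Slc2a1 433 and 278 CPM in responder and 503 and 384 CPM in non-responder libraries. Hif1a itself had 340 and 247 CPM in responder and 470 and 253 CPM in non-responder libraries, and its log2 fold change of -0.30 turned to 0.22 without non-responder replicate 1. Vhl, which targets HIF for degradation, had 35.3 and 28.2 CPM in responder and 42.1 and 44.9 CPM in non-responder libraries (log2 fold change -0.45, edgeR adjusted p = 0.766). Of the members, Angpt1, Vegfd, Pgf, Thbs2 and Nrp1 had their lowest value in responder replicate 2. The margin was small for Pgf (12 counts, against 14 in non-responder replicate 1) and Thbs2 (397 CPM, against 418 in responder replicate 1). The share of all tested genes with their lowest value in that library was not determined, so nothing is read from this.

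**Figure D5:**
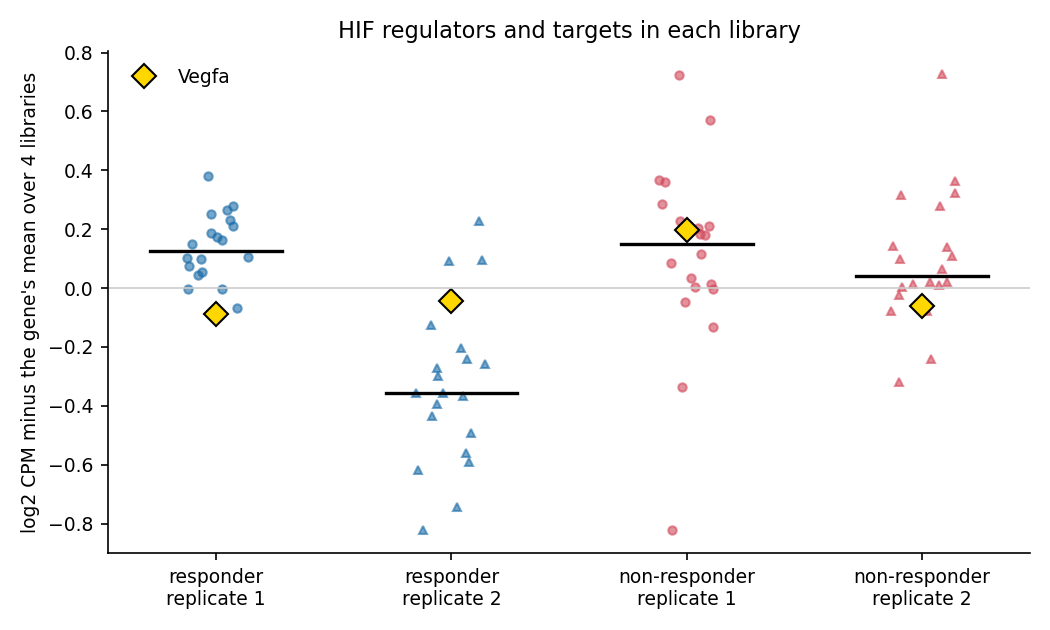
Log2 CPM of each of the 20 tested HIF regulators and targets minus that gene's mean over the 4 libraries, by library, with black bars for the median and a yellow diamond for Vegfa. The medians are 0.13 and -0.36 in responder and 0.15 and 0.04 in non-responder libraries, and Vegfa sits above the median in responder replicate 2.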

How the data were processed

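Values are raw read counts per gene as the authors deposited them, with no normalization and 1 file per library. Reads were counted with featureCounts 1.6.1, reverse-stranded (setting 2), on Ensembl release 91 of GRCm38 (mm10), per the file headers, and STAR is named as aligner in the submitters' processing notes; its version is not given in the sources used here. The counting command in the headers sets no option for multi-mapping reads. Symbols matched 53274 of the 53379 identifiers.

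Genes were kept by filterByExpr (minimum count 10), which left 13792. TMM normalization factors spanned 0.952 to 1.04. The test was edgeR 4.0.16 in R 4.3.3, robust quasi-likelihood, group as the only term, Benjamini-Hochberg over all tested genes, threshold 0.05. SE is the size of the log2 fold change over the square root of F, and the 95% interval is unadjusted. No libraries were near-identical (chi-square per degree of freedom 13.4 to 39.2). Alternatives were RLE, upper-quartile and library-size scaling, DESeq2 1.42.0, limma-voom (limma 3.58.1), no filter, a filter of 5 CPM in 2 libraries, the replicate number as a block, and each library left out, the filter then reapplied. The fit was tested on simulated data. Counting intervals and floors cover counting error only.

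The members, the 17 other gene lists and the tests were chosen with earlier results of these data known. Named genes are all members, the 2 tested genes of smallest p in each list and 25 set genes; Cspg4, Kcnj8, Erg, Gp9, Mcph1 and the genes of the closing part were added after their values were seen. A gene that the rule names is not reported here.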

Additional observations from a re-analysis of the deposited data

How the results depend on the processing

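No member passed edgeR's adjusted p of 0.05 under other scalings, DESeq2, limma-voom, the stricter filter or the replicate block; 1 member, Nrp1, passed with no filter on low counts and 1 at an unadjusted p, and 0 to 1 when each library was left out. Over all genes, against 0, DESeq2 called 62, no filter 212, the replicate block 32, the unadjusted p 856, and leaving out each library 41 to 516; other settings called 0. Leaving out a library leaves 1 in its group, whose spread is then taken from the other group. The cause of these moves was not tested. The replicate numbers share nothing stated in the labels; same-numbered deviations correlated at 0.39 across genes. With the block, edgeR's adjusted p was 0.0279 for Col1a1, 0.0279 for Pdgfrb and 0.0253 for Nr4a1.

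The sign of 4 of 9 members and 12 of 40 other named genes turned in some setting, and 1 member and 11 other named genes passed in some setting, in 2 and 38 values. Leaving out each library gave Thbs1 -0.82 to 1.00, Vegfc -0.15 to 0.50, Vegfd -0.35 to 0.17, Pgf -0.24 to 0.27, Nrp2 -0.17 to 0.26, Angptl4 -0.083 to 0.12, Car9 -0.80 to 0.11, Cd47 -0.35 to 0.24, Cdh1 -0.89 to 1.59, Cdh5 -0.22 to 1.14, Fgf2 -0.60 to 0.28, Gp1bb -1.27 to 0.0022, Hif1a -0.68 to 0.22, Pcsk7 -0.024 to 0.47, Sema3a -0.30 to 0.32 and Serpinf1 -0.28 to 0.045. Cdh1 was 0.31 with limma-voom and 0.16 with the block, and Sema3a 0.012 with library size alone and 0.0017 with the block. Pgf has no value under the stricter filter.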

Other observations

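Other regulators of vessel growth, chosen after their values were seen, differed in size between libraries. Timp3, a matrix-bound metalloproteinase inhibitor that blocks VEGFR2, had 12.0 and 1.68 CPM in responder and 0.773 and 1.12 CPM in non-responder libraries, so that responder replicate 1 alone carried most of its reads (edgeR adjusted p = 0.796). Mmp9, a gelatinase that releases matrix-bound VEGF, had 183 and 289 CPM in responder and 341 and 396 CPM in non-responder libraries. Col18a1, the source of endostatin, had 88.7 and 116 CPM in responder and 154 and 164 CPM in non-responder libraries, and Spry1, a feedback inhibitor of growth factor signalling, had 16.4 and 27.2 CPM in responder and 51.7 and 34.5 CPM in non-responder libraries. For Mmp9, Col18a1 and Spry1 the groups did not overlap, with lower values in responders (background 17.8%). For these genes edgeR's adjusted p was 0.766, 0.674 and 0.702. Adm, which encodes the vasodilator adrenomedullin, had 5.15 and 1.41 CPM in responder and 5.65 and 2.20 CPM in non-responder libraries, high in replicate 1 and low in replicate 2 of each group, as Thbs1 was.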
